A study of Mus musculus with 10 samples.

Results

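The heat shock and endoplasmic reticulum (ER) chaperone genes are 44 named genes of protein folding and of its stress responses, read here in CD4+ splenocytes of mice 6 h after abdominal surgery. A member was every probe set of the array whose annotation gave exactly 1 gene symbol and whose symbol was among the 44. This gave 107 of 45101 probe sets, for 42 of the 18193 genes so named on the array. The members Hsf1 and Hsp90ab1 had no probe set under that rule. The genes fall into a cytosolic set, which runs from Hspa1a to Bag3, with 54 probe sets, and an ER set of chaperones and unfolded protein response genes, from Hspa5 onward, with 53. The cytosolic set also holds 3 chaperones of mitochondria, Hspa9, Hspd1 and Hspe1. In all, 90 member probe sets for 40 genes were bright enough to be tested, 44 of the cytosolic and 46 of the ER set. Hspa1a and Stip1 had none that was. The signal of the only probe set of each lay near the background of the arrays, which need not mean that its RNA was scarce.

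All mice were C57Bl/6, 8 to 12 weeks old, and had a laparotomy under halothane in which the cecum was taken out. In the CLP group (n = 5 mice) the cecum was then ligated and punctured, which seeds the abdomen with gut bacteria and is a common model of sepsis. In the sham group (n = 5 mice) it was only handled and put back. The titles of the 5 sham arrays all read biological replicate 1, with a suffix from 1 to 5 that was taken here as the mouse. Splenocytes were enriched for CD4+ cells by magnetic removal of other cells, to about 91% per the labels, and every mouse has an Affymetrix array to itself. The samples are bulk RNA, so fewer cells of a type and less RNA per cell cannot be told apart.

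Chaperones bind proteins that are not yet folded, or have lost their fold, and release them in cycles driven by ATP. In the cytosol, heat shock factor 1 raises the genes of HSP70, HSP90 and their partners when unfolded protein builds up. In the ER, the sensors ATF6, IRE1 and PERK raise a separate set of chaperones through ATF6, XBP1 and ATF4, a program called the unfolded protein response. T cells raise chaperones of both kinds when they are activated and grow.

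The arrays fall into 2 classes by the signal of a control probe set for 18S ribosomal RNA, and each class holds both groups. In the low class, CLP replicates 2 and 4 and sham replicates 2 and 4, that signal was 194.3 to 268.4. In the high class, the other 3 mice of each group, it was 3134 to 5178. The ratio of the 3′ to the 5′ control of Gapdh, a measure of how far copies are shortened, was 9.45 to 13.4 in the low and 20.7 to 29.5 in the high class. The same ratio for beta-actin did not separate the classes, at 7.40 to 10.8 in the low and 6.25 to 11.7 in the high class. The class was known from earlier results of these data, and values with it as a block, or within a class, stand below where they change a call. The array medians lay between 127.6 and 142.4. Of the 6 CD4 T cell markers tested all were well above the floor of 6.14 on the log2 scale. Cd4 was 10.84 ± 0.29 (SD, n = 5) in sham and 10.72 ± 0.12 in CLP arrays, and Cd3e was 11.48 ± 0.12 and 11.36 ± 0.09. Thy1, which differed most of the 6, was 11.73 ± 0.49 and 10.94 ± 0.51. All 6 had a lower mean in CLP arrays.

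Values below are log2 of the scaled signal of a probe set, and differences are CLP minus sham on that scale. A gene stands by its brightest tested probe set unless another is named, and SE is the moderated standard error of limma. Adjusted p-values are its Benjamini-Hochberg values, taken over the whole table of 27022 tested probe sets. Signals of different probe sets are not comparable as amounts of RNA, since probes bind with different strength.

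In CLP mice 1 member gene of the cytosolic set, Hsph1, was lower past the threshold of 0.05, and none of the ER set was lower or higher. Hsph1 was 1.93-fold lower. That is 1 of 18 cytosolic genes, beside 0.551% of all genes tested that passed as lower and 0.199% as higher, and 1 of 44 cytosolic probe sets (2.27%) and 0 of 46 ER probe sets, beside 0.537% of all probe sets tested that passed as lower and 0.167% that passed as higher. At an unadjusted p under 0.05, 3 of 18 cytosolic genes (16.7%) and 4 of 22 ER genes (18.2%) were lower and none was higher, beside 8.19% lower and 3.65% higher of all genes tested. The mean in CLP arrays was below that in sham arrays for 11 of 18 cytosolic genes and 16 of 22 ER genes, and for 48.8% of all 13073 genes. The median difference was -0.06 in the cytosolic set, -0.15 in the ER set and 0.0046 over all genes tested. The cytosolic differences ran from -0.95 to 0.17 and the ER differences from -0.52 to 0.12. The cytosolic median moved by over 1.5 times without single arrays: it was -0.087 without CLP replicate 1, -0.12 without CLP replicate 2, -0.014 without CLP replicate 4, -0.019 without CLP replicate 5 and -0.026 without sham replicate 4. It was -0.11 with the probe sets of a gene averaged, against -0.12 in the ER set. Over all tested probe sets the sets were closer, with 31 of 44 cytosolic (70.5%) and 33 of 46 ER probe sets (71.7%) lower on average, and medians of -0.08 and -0.12. The difference between the sets was not tested.

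**Figure D1:**
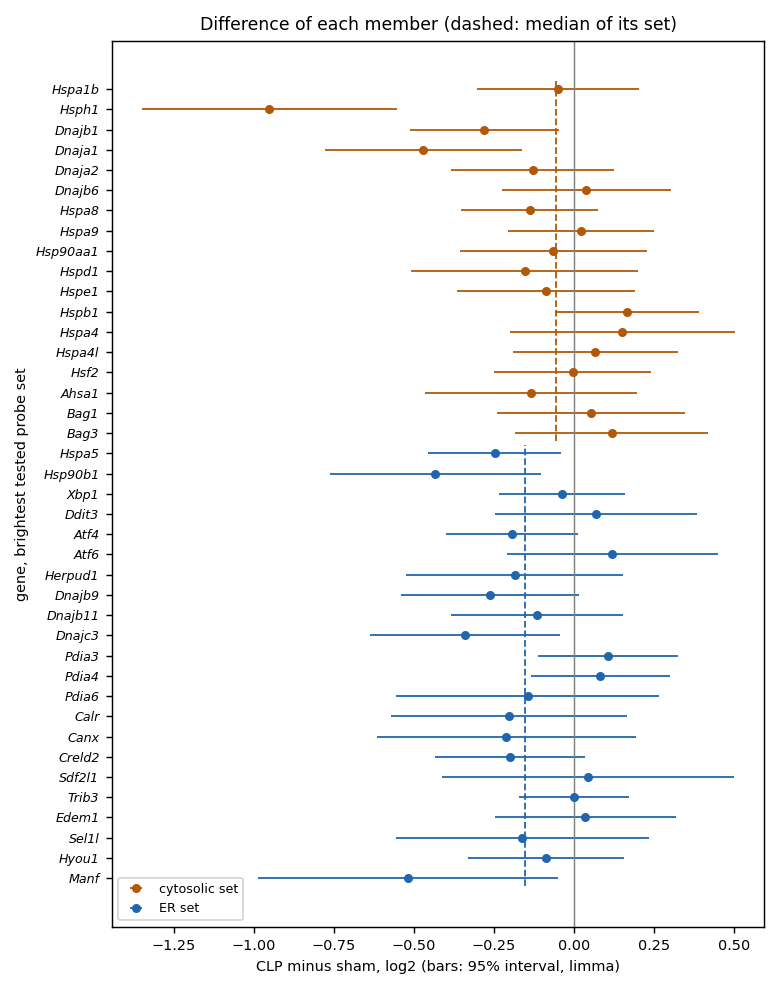
Difference of each of the 40 tested member genes, CLP minus sham in log2 units, with its 95% interval from limma; orange points are the cytosolic and blue points the ER set, and dashed lines are the medians of the sets. Hsph1, at -0.95, lies apart from the other cytosolic genes, while the ER points gather around a median of -0.15.

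The sets differ in the sequence before their start sites. The choice of members did not read these sequences, but it took genes of the heat shock and unfolded protein responses. A difference in the elements of these responses is therefore not independent of that choice. RefSeq promoter windows of build GRCm38.p6 were matched by symbol for 36 of the 44 members, 17 cytosolic and 19 ER (not for Hsf1, Hsp90aa1, Hsp90ab1, Hspa8, Hspa9, Atf6, Hyou1 and Manf), and the 250 bases before the start were searched on both strands. The members had 42 windows, as some genes have several start sites, and a match in any window counted for its gene. The ER stress element was searched as CCAAT, 9 bases of any kind and CCACG, so it contains the CCAAT box (CCAAT). It was found in 7 of 19 ER members and 0 of 17 cytosolic members, and in 0.13% of 27025 genes with such a window. The heat shock element was searched as GAANNTTC followed by NNGAA, and in its shorter forms GAANNTTC and TTCNNGAA, which the longer one contains. The long form was found in 3 cytosolic members (Dnajb6, Hspd1 and Hspe1) and no ER member, and in 0.514% of all genes. GAANNTTC was in 7 of 17 cytosolic members and TTCNNGAA in 4, neither was in an ER member, and all genes held them in 7.73% and 8.11%. The members counted are not all independent. Hspd1 and Hspe1 share a stretch of matches, as their windows overlap, and Hspa1a and Hspa1b both hold GAAGATTC from 104 bases before the start. The CCAAT box alone was in 17 of 19 ER, 7 of 17 cytosolic members and 37.5% of all genes. Other motifs searched were the ATF6 core (TGACGTG) and the amino acid response element (TGATGNAA). The first was in 1 of 19 ER members (Hspa5) and 1.85% of all genes. The second was in 1 of 19 ER members (Herpud1) and 3.91% of all genes. Neither was in a cytosolic member. A match is a description of letters and not a site.

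The 3 ER promoters printed next are those with the element among the genes whose unadjusted p was under 0.05, and show where the element lies (matches in capitals, 5′ to 3′ on the strand of the gene, the last base next to the start site). Hspa5 is chr2:34771840-34772089 on the plus strand, Hsp90b1 chr10:86705445-86705694 on the minus strand and Dnajc3 chr14:118937682-118937931 on the plus strand. Hsp90b1 holds the element on each strand and the others on the plus strand of the gene.
Hspa5: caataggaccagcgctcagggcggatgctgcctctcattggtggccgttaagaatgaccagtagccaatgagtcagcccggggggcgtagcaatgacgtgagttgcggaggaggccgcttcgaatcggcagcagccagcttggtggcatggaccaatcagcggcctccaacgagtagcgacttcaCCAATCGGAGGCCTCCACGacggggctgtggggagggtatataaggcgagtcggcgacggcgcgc
Hsp90b1: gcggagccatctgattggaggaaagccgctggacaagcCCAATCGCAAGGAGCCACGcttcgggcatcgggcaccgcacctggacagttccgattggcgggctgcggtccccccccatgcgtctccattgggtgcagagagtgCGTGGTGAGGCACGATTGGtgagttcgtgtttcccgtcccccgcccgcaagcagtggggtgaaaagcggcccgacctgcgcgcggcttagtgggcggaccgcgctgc
Dnajc3: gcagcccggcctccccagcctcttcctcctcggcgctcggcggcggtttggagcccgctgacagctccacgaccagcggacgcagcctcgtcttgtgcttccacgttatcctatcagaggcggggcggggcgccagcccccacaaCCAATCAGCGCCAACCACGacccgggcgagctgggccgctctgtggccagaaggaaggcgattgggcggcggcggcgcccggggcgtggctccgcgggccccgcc

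The 3 cytosolic promoters are those of Hsph1 and Dnaja1, the genes lowest in the cytosolic set, and of Hspd1, whose window overlaps that of its neighbour Hspe1 on the other strand (heat shock elements in capitals). Hsph1 is chr5:149636337-149636586 on the minus strand, Dnaja1 chr4:40722218-40722467 on the plus strand and Hspd1 chr1:55087933-55088182 on the minus strand. Hsph1 and Dnaja1 each hold only a short form, at 33 and 124 bases before the start, and Hspd1 holds a run of the long form from 144 bases before it. Where a gene had several windows, the first with a match is printed. Other windows of Dnaja1 held no heat shock element, and in another window of Hsph1 the match lay at 54 bases.
Hsph1: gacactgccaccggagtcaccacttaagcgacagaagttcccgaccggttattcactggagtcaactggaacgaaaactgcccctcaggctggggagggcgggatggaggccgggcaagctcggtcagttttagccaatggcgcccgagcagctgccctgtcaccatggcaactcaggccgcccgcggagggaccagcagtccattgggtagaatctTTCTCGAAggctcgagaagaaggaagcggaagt
Dnaja1: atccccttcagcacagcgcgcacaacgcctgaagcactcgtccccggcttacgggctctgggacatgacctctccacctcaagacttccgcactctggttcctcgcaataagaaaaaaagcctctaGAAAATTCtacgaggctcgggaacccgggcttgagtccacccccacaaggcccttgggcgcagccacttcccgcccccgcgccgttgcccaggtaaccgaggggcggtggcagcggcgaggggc
Hspd1: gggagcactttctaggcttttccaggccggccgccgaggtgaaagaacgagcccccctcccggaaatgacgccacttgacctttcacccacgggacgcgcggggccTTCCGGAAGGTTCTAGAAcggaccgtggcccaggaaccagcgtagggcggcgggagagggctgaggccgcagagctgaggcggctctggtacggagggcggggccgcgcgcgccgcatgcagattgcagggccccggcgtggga

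Hsph1 encodes HSP110, the large HSP70 relative that makes HSP70 let go of ADP and helps it pull apart aggregates. Its signal in sham replicates 1 to 5 was 11.76, 11.20, 11.41, 11.41 and 11.46. In CLP replicates 1 to 5 it was 11.21, 10.42, 10.24, 10.37 and 10.23. CLP replicates 2 to 5 thus lay well below every sham array, while CLP replicate 1 lay just above the lowest sham array. The mean fell from 11.44 ± 0.20 to 10.49 ± 0.41 (SD, n = 5), a difference of -0.95 ± 0.18 (SE, adjusted p = 0.0457 by limma). With the 18S class as a block the adjusted p was 0.0233, and the difference was -0.98 within the high class and -0.91 within the low class. Without CLP replicate 1 the difference was -1.13 (adjusted p = 0.00173 by limma). Leaving out any other single array gave differences from -1.01 to -0.87, with adjusted p from 0.0647 to 0.138 by limma, so the call was lost each time.

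Dnaja1, a J-domain protein that hands clients to HSP70 and starts its ATPase, was measured by 3 tested probe sets, all lower in CLP arrays. Its brightest gave 12.12, 11.47, 11.97, 11.67 and 11.96 in sham and 11.66, 11.29, 11.44, 11.13 and 11.33 in CLP replicates 1 to 5. The groups overlapped through sham replicate 2 alone, and the difference was -0.47 ± 0.14 (SE, adjusted p = 0.168 by limma). The probe set 1459835_s_at gave 11.52, 11.54, 11.63, 11.69 and 11.37 in sham and 11.33, 10.97, 10.98, 11.21 and 11.11 in CLP arrays. The probe set 1460179_at gave 10.92, 10.94, 11.04, 11.15 and 10.75 in sham and 10.69, 10.62, 10.31, 10.47 and 10.56 in CLP arrays. In both of these every CLP array lay below every sham array, which 2.11% of all probe sets tested also did (the reverse, every CLP array above, held for 0.862% of all and for no member). Both differed by -0.43 (adjusted p = 0.0782 and 0.0905 by limma). With the 18S class as a block all 3 passed, with adjusted p = 0.0293, 0.0437 and 0.0459 by limma.

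Dnajb1 is the stress-induced J-domain partner of HSP70. It read 11.77, 11.36, 11.76, 11.59 and 11.70 in sham and 11.59, 11.25, 11.25, 11.29 and 11.39 in CLP replicates 1 to 5. The difference of -0.28 ± 0.11 (SE) did not pass (adjusted p = 0.319 by limma), and sham replicate 2 lay among the CLP arrays. Dnaja2, a relative of Dnaja1, read 11.56, 11.82, 11.71, 11.96 and 11.53 in sham and 11.59, 11.90, 11.54, 11.47 and 11.45 in CLP arrays, which overlapped. It differed by -0.13 and Dnajb6, which keeps proteins from aggregating, by 0.04, so the 4 members of this role had a median of -0.20.

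**Figure D2:**
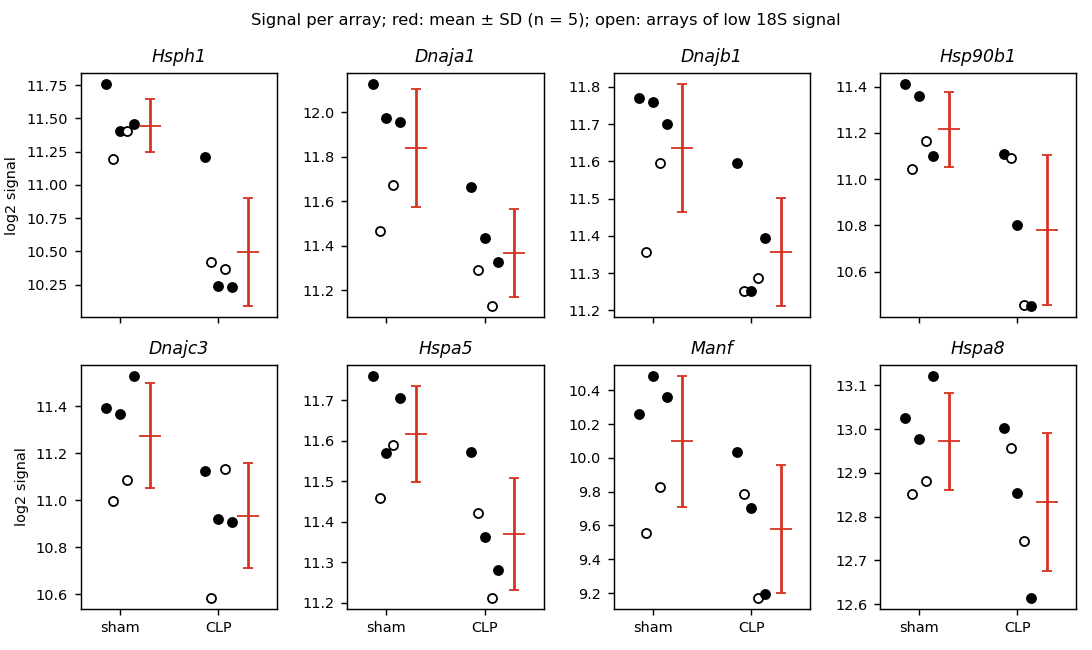
Log2 signal per array of 8 member genes in sham and CLP arrays, each panel on its own scale; black points are arrays of high and open points arrays of low 18S signal, and red marks give the mean and SD of 5 arrays. In Hsph1, 4 CLP arrays lie between 10.23 and 10.42, below all sham arrays, and CLP replicate 1 lies at 11.21; in the other panels the groups overlap.

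HSP70 and HSP90 of the cytosol had small differences. Hspa8, the HSP70 of unstressed cells, read 13.03, 12.85, 12.98, 12.88 and 13.12 in sham and 13.00, 12.96, 12.85, 12.74 and 12.61 in CLP replicates 1 to 5. The groups overlapped, and the difference was -0.14, with a 95% interval from -0.35 to 0.08. Hsp90aa1, the inducible HSP90, gave -0.06 (interval -0.36 to 0.23) and Ahsa1, which speeds up the HSP90 ATPase, gave -0.13 (interval -0.46 to 0.20). Hsp90aa1 was 12.47, 12.88, 12.43, 12.63 and 12.32 in sham and 12.54, 12.81, 12.39, 12.46 and 12.20 in CLP arrays. In both groups its highest array was replicate 2, an array of the low 18S class.

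The only probe set of Hspa1a lay at the floor on all 10 arrays. Hspa1b, whose coding sequence is nearly the same as that of Hspa1a so that probes may read both, gave 7.73 ± 0.17 in sham and 7.68 ± 0.19 in CLP arrays (SD, n = 5). Hspb1, a small heat shock protein that holds unfolded clients, read 8.37, 8.17, 8.04, 8.39 and 8.20 in sham and 8.30, 8.24, 8.35, 8.51 and 8.60 in CLP arrays. Its difference of 0.17, the highest of the cytosolic set, did not pass (adjusted p = 0.67 by limma). Bag3, an exchange factor that sends HSP70 clients to autophagy, gave 0.12, and Bag1, which links HSP70 to the proteasome, 0.05. Hsf2, a heat shock factor, gave -0.0035 (interval -0.25 to 0.24).

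The mitochondrial chaperones had a median of -0.09, and none passed. Hspe1, the HSP10 lid of the mitochondrial folding chamber, read 12.06, 12.33, 12.13, 12.52 and 12.00 in sham and 12.26, 12.39, 11.97, 12.04 and 11.95 in CLP replicates 1 to 5. It differed by -0.09, Hspd1, the HSP60 chamber itself, by -0.15 and Hspa9, the mitochondrial HSP70, by 0.02. The other tested probe sets of Hspa9 gave -0.0018 and -0.30. Without these 3 genes the median of the cytosolic set was -0.05.

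Probe sets of 1 gene did not always move together. Of 29 member genes with more than 1 tested probe set, 16 had differences of both signs, 12 only below and 1 only above 0. The widest disagreement was that of Hspa4, an HSP110 relative of Hsph1. Its brightest probe set gave 0.15 ± 0.16, while 1435194_at gave -1.55 ± 0.37 (SE, adjusted p = 0.0932 by limma, and 0.043 with the 18S class as a block). The latter read 11.51, 10.93, 11.47, 11.04 and 11.32 in sham and 11.11, 8.76, 8.96, 10.05 and 9.66 in CLP replicates 1 to 5. CLP replicate 1 again lay among the sham arrays, and the other 4 lay below them. Hspa4l, a further HSP110 relative, ran from -0.47 to 0.07 over 5 probe sets.

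**Figure D3:**
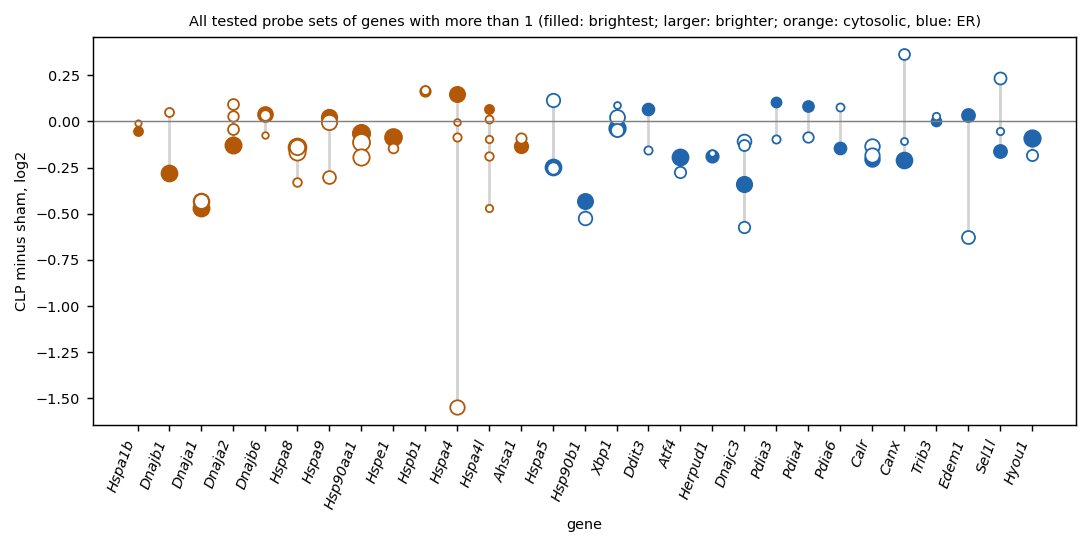
CLP minus sham difference, in log2 units, of every tested probe set of the 29 member genes that have more than 1; each column is a gene, filled points are its brightest probe set, larger points are brighter, and orange and blue mark the cytosolic and ER sets. Dnaja1 has 3 points between -0.47 and -0.43, while Hspa4 runs from -1.55 to 0.15.

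The HSP70, HSP90 and exchange factor of the ER were each lower on average by their brightest probe set, and none passed. Hspa5 (BiP), the HSP70 of the ER that also holds the stress sensors inactive, read 11.76, 11.46, 11.57, 11.59 and 11.71 in sham and 11.57, 11.42, 11.36, 11.21 and 11.28 in CLP replicates 1 to 5. CLP replicates 2 to 5 lay below every sham array and CLP replicate 1 lay among them, and the difference was -0.25 ± 0.10 (SE, adjusted p = 0.322 by limma). Another of its 3 tested probe sets, 1447824_x_at, gave 0.11. Hsp90b1 (GRP94), the HSP90 of the ER, read 11.41, 11.04, 11.36, 11.16 and 11.10 in sham and 11.11, 11.09, 10.80, 10.46 and 10.45 in CLP arrays. Its CLP replicates 3 to 5 lay below all sham arrays, and the difference was -0.43 ± 0.15 (SE, adjusted p = 0.253 by limma). Hyou1 (GRP170), the exchange factor of BiP, read 11.95, 11.67, 11.93, 11.93 and 11.94 in sham and 12.06, 11.56, 11.64, 11.78 and 11.94 in CLP arrays. Its groups overlapped, with CLP replicate 1 the highest of all, and the difference was -0.09.

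The J-domain proteins of the ER, which feed clients to BiP, were also lower on average. Dnajc3 (p58IPK), which also restrains PERK, read 11.39, 11.00, 11.37, 11.09 and 11.53 in sham and 11.13, 10.59, 10.92, 11.13 and 10.91 in CLP replicates 1 to 5. The groups overlapped in the 2 sham arrays of the low 18S class, and the difference was -0.34 ± 0.14 (SE, adjusted p = 0.348 by limma). A dimmer probe set, 1419162_s_at, differed by -0.57 and passed with that class as a block (adjusted p = 0.031 by limma). Dnajb9 (ERdj4), which also restrains IRE1, read 10.51, 10.91, 10.65, 11.02 and 10.54 in sham and 10.54, 10.59, 10.27, 10.65 and 10.28 in CLP arrays, a difference of -0.26 ± 0.13 (SE, adjusted p = 0.5 by limma). Dnajb11 differed by -0.11.

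Manf, a secreted protein of the ER that is raised by the unfolded protein response, had the lowest value of the set. It read 10.26, 9.56, 10.48, 9.83 and 10.36 in sham and 10.04, 9.79, 9.70, 9.17 and 9.20 in CLP replicates 1 to 5. The 2 sham arrays of the low 18S class lay among the CLP arrays, and the difference of -0.52 ± 0.21 (SE) did not pass (adjusted p = 0.381 by limma). It was -0.72 within the high and -0.21 within the low class. Creld2, another such target, gave -0.20, and Sdf2l1, a partner of BiP close to the floor, gave 0.04.

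By their brightest probe sets, the lectins and disulfide isomerases did not share a direction. Calr and Canx, which hold glycoproteins until they fold, gave -0.20 and -0.21. Of the isomerases, which form and exchange disulfide bonds, Pdia6 gave -0.14, Pdia3 0.11 and Pdia4 0.08, each with an interval that held 0. Canx was among the genes whose probe sets disagreed, from -0.21 to 0.36. Each isomerase also had a tested probe set of the other sign, at 0.08 for Pdia6, -0.09 for Pdia3 and -0.09 for Pdia4. The direction given for an isomerase thus depends on the choice of the brightest.

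The transcription factors of the unfolded protein response, grouped with Trib3, had a median nearest to 0 of the roles in the ER set. That median was the value of Trib3, and the factors ran from -0.19 (Atf4) to 0.12 (Atf6). Xbp1 read 11.96, 11.88, 12.07, 11.75 and 11.90 in sham and 11.84, 11.98, 12.00, 11.77 and 11.77 in CLP replicates 1 to 5, a difference of -0.04 with an interval from -0.23 to 0.16. Atf4, which acts below PERK, read 11.70, 11.62, 11.60, 11.67 and 11.77 in sham and 11.67, 11.31, 11.48, 11.62 and 11.31 in CLP arrays and differed by -0.19 (interval -0.40 to 0.01). Of its targets, Ddit3 (CHOP), a factor of ER stress-induced death, gave 0.07 (interval -0.25 to 0.38), and the interval of Trib3, a pseudokinase, ran from -0.17 to 0.17. Atf6, the sensor that is cut to become a factor, gave 0.12 (interval -0.21 to 0.45).

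The genes of ER-associated degradation, which sends misfolded proteins back to the cytosol, were mixed. Herpud1, a membrane protein of the HRD1 complex, gave -0.19 and Sel1l, the scaffold of the HRD1 ligase, -0.16. Other tested probe sets of Sel1l gave 0.23 and -0.05. Edem1, a lectin that picks misfolded glycoproteins, gave 0.04 by its brightest probe set. Its other probe set, 1451218_at, read 9.78, 9.66, 10.20, 9.73 and 10.26 in sham and 9.48, 9.17, 9.34, 9.11 and 9.41 in CLP replicates 1 to 5. Every CLP array lay below every sham array there, at -0.63 ± 0.14 (SE, adjusted p = 0.0677 by limma, and 0.0156 with the 18S class as a block). The 2 probe sets of Edem1 have nearly the same mean signal, 9.64 and 9.61, so the choice of the brightest decides the value given for the gene.

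With the 18S class as a block, 5 of 44 cytosolic probe sets (11.4%) and 2 of 46 ER probe sets (4.35%) passed as lower and none as higher. Over all probe sets tested 2.01% passed as lower and 0.648% as higher in that fit. The 5 were Hsph1, the 3 of Dnaja1 and 1435194_at of Hspa4, and the 2 were those of Dnajc3 and Edem1 named above, so they stand for 5 genes. Probe sets of 1 gene share its transcript and are not independent of each other.

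**Figure D4:**
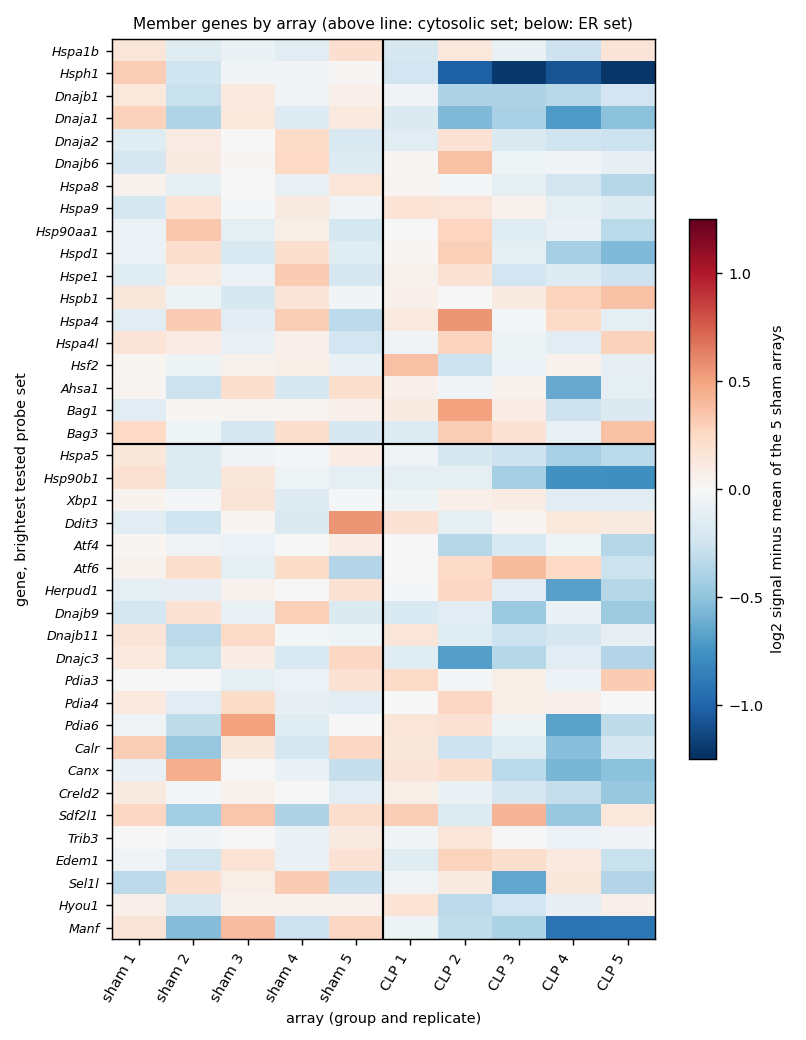
Log2 signal of the 40 tested member genes (rows, the cytosolic set above the line and the ER set below it) on the 10 arrays (columns, sham left and CLP right), as the deviation from the mean of the 5 sham arrays; blue is lower and red higher. CLP replicates 3 to 5 are below the sham mean in 28, 32 and 32 of 40 genes, and CLP replicates 1 and 2 in 19 each.

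Single arrays differed in how many members lay low. CLP replicates 3, 4 and 5 lay below the sham mean in 28, 32 and 32 of the 40 genes, while CLP replicates 1 and 2 did so in 19 each. Sham replicates 1 to 5 did so in 16, 26, 16, 23 and 20, so sham replicate 2 came close to CLP replicate 3. For all genes tested, the same share was 48.5% in CLP replicate 1, 47.8% in CLP replicate 2, 50.8% in CLP replicate 3, 57.5% in CLP replicate 4 and 51.0% in CLP replicate 5. CLP replicate 1 was the highest of the 5 CLP arrays in 16 member genes, and it was the highest in 21.8% of all genes. The mean over the cytosolic genes was 10.41 ± 0.05 in sham and 10.31 ± 0.12 in CLP arrays (SD, n = 5), and that over the ER genes was 9.90 ± 0.09 and 9.77 ± 0.12. The ER mean minus the cytosolic mean, within an array, was -0.52 ± 0.12 in sham and -0.55 ± 0.06 in CLP arrays, and the groups overlapped. That difference also varied with the 18S class, at -0.61 ± 0.05 (SD, n = 4) in the low and -0.48 ± 0.07 (n = 6) in the high class. The classes overlapped through CLP replicate 5 of the high class, at -0.59. Between the classes the ER genes had a median of 0.09, high minus low, with 17 of 22 higher in the high class, the cytosolic genes a median of -0.07 with 7 of 18 higher, and all genes tested a median of 0.00075.

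**Figure D5:**
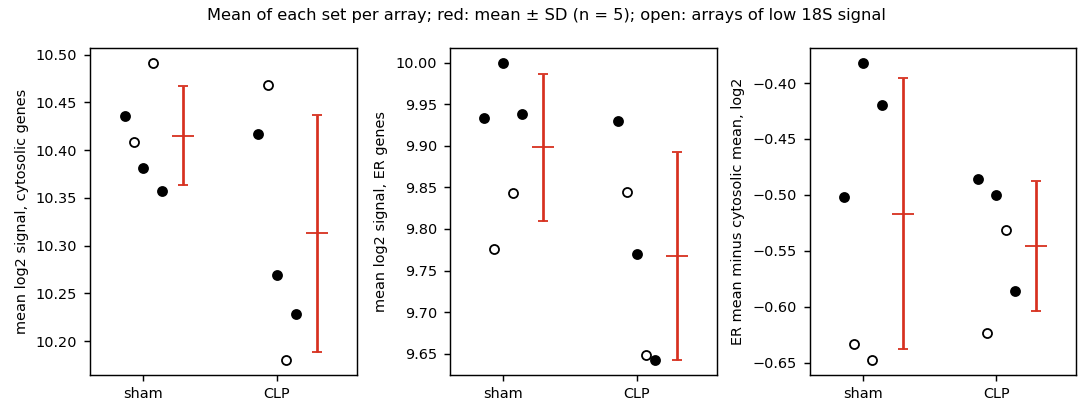
Mean log2 signal per array over the cytosolic genes (left), over the ER genes (middle) and their difference (right) in sham and CLP arrays; black points are arrays of high and open points arrays of low 18S signal, and red marks give the mean and SD of 5 arrays. CLP arrays reach lower than sham arrays in both means, and in the difference the 4 arrays of low 18S signal lie between -0.65 and -0.53. CLP replicate 5, of high 18S signal, lies in that range too, at -0.59.

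Markers of other cells were read beside these values, as the summed signal of each list per array. Plasma cells, which are rich in ER chaperones, had 5 markers with sums of 7981 to 10990 in sham and 7212 to 11317 in CLP arrays. The 7 B cell markers summed to 2136 to 3919 and 1949 to 4796, and the 7 neutrophil markers to 3898 to 11437 and 2131 to 15057. The 7 markers of monocytes and macrophages summed to 3062 to 4851 and 3753 to 4694, the 5 of dendritic cells to 733.6 to 873.7 and 779.2 to 1077, with Xcr1 at the floor on every array, and the 5 erythroid ones to 1087 to 2680 and 1715 to 6060, with Hba-a1 at the floor. The 2 CD8 markers summed to 394.1 to 545.2 and 468.3 to 579.9. The sums of 4 NK markers did not overlap, with 2464 to 3228 in sham and 1895 to 2416 in CLP arrays, and Ncr1, which defines NK cells, at the floor on every array. The 6 CD4 T cell markers summed to 12904 to 19368 and 11260 to 13733. Among single genes, 2.28% of all tested had every CLP array below every sham array. Of 41 such markers tested none passed by limma. At an unadjusted p under 0.05 were 7, lower or higher, beside 8.19% lower and 3.65% higher of all genes tested. The means of all 6 CD4 T cell markers were below those of sham arrays, from -0.12 for Cd3e to -0.79 for Thy1, and with the 18S class as a block Cd5, Thy1 and Cd3g passed (adjusted p = 0.0326, 0.0144 and 0.0426 by limma), as did the NK marker Klrd1 (-0.54, adjusted p = 0.0359). Over all probe sets tested 2.01% passed as lower in that fit. The part of the marker genes in the values of the chaperones was not tested.

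Other genes of the same pathways were read from 8 lists with 94 tested genes. None passed over all probe sets tested by limma. At an unadjusted p under 0.05, 6 were lower (6.38%) and 4 higher (4.26%), beside 8.19% and 3.65% of all genes. In the cytosol, 20 co-chaperones had a median of 0.07 and 8 subunits of the TRiC chaperonin, which folds actin and tubulin, one of -0.03. Chordc1, a partner of HSP90, gave -0.55 ± 0.14 (SE, adjusted p = 0.101 by limma, and 0.0268 with the 18S class as a block). Hspb6, a small heat shock protein, gave 0.32 ± 0.10 (SE, adjusted p = 0.192), with every CLP array above every sham array, as in 0.849% of all genes, and Bag4 gave 0.21. Of 9 mitochondrial chaperones and proteases (median 0.10), Grpel2, an exchange factor of mitochondrial HSP70, lay below in every CLP array, as 2.28% of all genes did, at -0.36 ± 0.10 (SE, adjusted p = 0.117).

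In the ER, 15 folding genes had a median of 0.03, 15 of ER-associated degradation 0.02 and 11 of translocation -0.02. Ero1a, the oxidase that recharges disulfide isomerases, gave -0.41 ± 0.11 (SE, adjusted p = 0.128 by limma) and Hspa13, an HSP70 relative of the ER, -0.51 ± 0.14 (adjusted p = 0.142). Of the sensors, Eif2ak3 (PERK) gave 0.70 ± 0.20 (SE, adjusted p = 0.142) while Ern1 (IRE1) gave -0.24 ± 0.13, and neither passed. Mbtps1 and Mbtps2, the Golgi proteases that cut ATF6, gave -0.33 and -0.10. The 12 tested targets of ATF4 and the integrated stress response had a median of 0.03. Of these Cebpg, a partner of ATF4, gave -0.80 ± 0.21 (SE, adjusted p = 0.118, and 0.0336 with the 18S class as a block). Ppp1r15a (GADD34), which ends the stress response by removing phosphate from eIF2alpha, gave 0.29 ± 0.20.

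Among the 7 ER members whose promoter window holds the ER stress element the differences were -0.25 for Hspa5, -0.43 for Hsp90b1, -0.34 for Dnajc3, -0.20 for Calr, -0.21 for Canx, -0.20 for Creld2 and -0.14 for Pdia6. By these brightest probe sets all 7 lay below 0, as did 16 of the 22 ER genes tested, and none passed. Hspa5, Canx and Pdia6 each also had a tested probe set above 0, at 0.11, 0.36 and 0.08. Of the cytosolic genes with the long heat shock element, Hspd1 differed by -0.15, Hspe1 by -0.09 and Dnajb6 by 0.04. Of those with a short form alone, Hsph1 differed by -0.95, Dnaja1 by -0.47, Hspa1b by -0.05 and Hspb1 by 0.17, and Hspa1a was not tested.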

How the data were processed

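RNA of CD4+ splenocytes from 5 CLP and 5 sham mice was labelled after 2 rounds of amplification and read on Affymetrix arrays, per the labels' protocols. The deposited table gives 1 linear intensity for a probe set on an array. Which program made these intensities, and how it corrected and scaled them, is not given in the sources. Intensities ran from 0 to 20290. The number of arrays limits the precision.

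Arrays were brought to equal medians, signals under the 25th percentile (70.4) were raised to it, and log2 was used from there. Of 45101 probe sets, 64 were controls; these and probe sets below the 40th percentile of mean log2 were left out, which left 27022. CLP was compared with sham by limma 3.58.1 in R 4.3.3, with Benjamini-Hochberg adjustment over all 27022 and a threshold of 0.05. The steps were tested on simulated data. Platform annotation gave 1 symbol for 34945 probe sets. Array values are given for members that passed, did not overlap between groups, or were among the 6 lowest p or the 3 highest signals of their set; the probe sets of Hspa4 and Dnajc3 given beside these were chosen after their values were seen. The members and lists were chosen with earlier results of these data known. The labels number the sham arrays by a suffix and do not say whether arrays of the same number belong together. In both groups replicates 2 and 4 are the arrays of low 18S signal. The main fit took no account of the number. Alternatives were other normalizations, floors, filters and variance models, array weights, the 18S class at an intensity of 1000, a replicate block, averaged probe sets and leaving out each array. Figures were drawn with matplotlib 3.10.9.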

Additional observations from a re-analysis of the deposited data

Results flagged for a closer look

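Hsph1 was flagged in CLP arrays, where CLP replicate 1, at 11.21, stood apart from the next highest array at 10.42. Hyou1 was flagged in sham arrays, where sham replicate 2, at 11.67, lay below the others, of which the lowest was 11.93. These were 2 of 40 groups of 5 arrays examined, and chance flags about 1 in 20 groups.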

How the results depend on the processing

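No member of either set passed as higher under any of the alternatives run. The count of cytosolic probe sets that passed as lower, 1 with the settings of the report, was 0 without a filter and within either 18S class, 3 with array weights, 5 with the 18S class as a block and 2 genes with probe sets averaged, and 0 to 3 when single arrays were left out (3 without CLP replicate 1, 0 without any other). The count of ER probe sets, 0 in the report, was 1 with array weights, 2 with the 18S class as a block, 1 with the replicate block and 0 to 1 when single arrays were left out (1 without CLP replicate 1). The median of the cytosolic set, -0.06, was -0.11 with probe sets averaged and ran from -0.12 to -0.014 when single arrays were left out, and that of the ER set ran from -0.21 to -0.09 over all alternatives. Without CLP replicate 2 the cytosolic median was -0.12. Hsph1 was lower in all 23 alternatives and passed in 11. Adjusted p by limma ran over these from 0.00173 to 0.42 for Hsph1, from 0.0293 to 0.716 for the brightest probe set of Dnaja1, and from 0.0156 to 0.487 for 1451218_at of Edem1. The upper end of each was within the low class, with 2 arrays per group. Edem1 changed sign within the high 18S class (-0.17), with probe sets averaged (-0.29), and without CLP replicate 2 (-0.024), CLP replicate 3 (-0.0089) or sham replicate 2 (-0.021), with -0.024 to 0.12 over single arrays left out. Xbp1 did so within the low class (0.060), with probe sets averaged (0.0086) and without sham replicate 3 (-0.077 to 0.0027 over single arrays left out), and Hsp90aa1 without CLP replicate 5 (0.0052) or sham replicate 2 (-0.15 to 0.020). None of these passed either way, and the cause was not tested. With the replicate number as a block Hsph1 had an adjusted p of 0.0302 by limma and 1 ER probe set, 1451218_at of Edem1, passed (0.0481); deviations of same-numbered arrays correlated by 0.06 to 0.58, below 0.1 for number 5, and only CLP replicate 2 correlated best with the sham array of its own number. Over all probe sets 145 passed as lower and 45 as higher, against 158 and 90 with that block, 354 and 154 with array weights, 543 and 175 with the 18S class as a block, 3 and 0 without a filter, 0 and 0 within either class, and 4 to 384 and 0 to 123 with single arrays left out. The 5 arrays per group limit what these values can show.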
